A study of Homo sapiens with 4 samples.

Results

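miR-191 gave the brightest of the 455 human miRNA probes on arrays of LAPC-4 cells treated with an androgen, and its signal is described here across the doses. It was followed through the matched human probe of that name and its paired probe with 2 mismatches (2mut). No probe of that name was found among the 223 rodent-named probes, so the miRNA rests on 2 probes. It was chosen by its mean signal over the arrays, so its brightness, its place in the order and its share of the signal are given as a description with no test. Brightness depends on how well a probe binds and labels as well as on RNA amount, and does not order miRNAs by abundance.

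LAPC-4 is an established human prostate cancer line that expresses the androgen receptor. All cells were first kept in androgen-free medium made with charcoal-stripped serum and then received the synthetic androgen R1881 at 0, 0.1, 1 or 10 nM. The untreated cells shared that medium. Cy3-labelled total RNA was put on custom single-colour CombiMatrix arrays, 1 per dose, giving 4 arrays and no replicates in 1 cell line. The question of the series was which miRNAs respond to androgen, and how long R1881 was given is not stated clearly in the labels.

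miR-191 is a short RNA that guides Argonaute proteins to messenger RNAs, mainly through its seed, the bases near its 5′ end. It is abundant in many epithelial cells, is raised in several solid tumours, and is often used as a reference in quantitative PCR of other miRNAs. Its gene lies beside that of miR-425 within the host gene DALRD3, which encodes a protein with a DALR anticodon-binding domain, and both miRNAs are cut from the same primary transcript.

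In GRCh38.p14, MIR191 lies at chr3:49020618-49020709 and MIR425 at chr3:49020148-49020234, both on the minus strand, with 383 bases between the hairpins. Both fall inside DALRD3 (chr3:49015488-49021505, minus strand), and MIR191 also lies within the span of NDUFAF3 (chr3:49020452-49023495), a plus-strand gene for a mitochondrial complex I assembly factor. The sequences are from RefSeq, 5′ to 3′. In the hairpin of MIR191, shown because the array has a probe for each arm, the capitals mark the 5p arm and then the 3p arm.
MIR191 hairpin: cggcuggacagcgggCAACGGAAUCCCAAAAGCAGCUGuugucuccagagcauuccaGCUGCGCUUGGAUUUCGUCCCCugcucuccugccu

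The mature sequences below are of miRNAs named in the results, with the seed (bases 2 to 8) in capitals. They are both arms of miR-191, the 3p arm of its partner, and 4 of the next brightest miRNAs. The sequence of miR-425-5p is not shown, because the sequence source used here held no mature entry for it. In current naming the array's miR-191 is miR-191-5p and its miR-191* is miR-191-3p.
hsa-miR-191-5p: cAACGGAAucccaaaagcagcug
hsa-miR-191-3p: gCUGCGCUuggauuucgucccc
hsa-miR-425-3p: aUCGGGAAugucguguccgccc
hsa-miR-16-5p: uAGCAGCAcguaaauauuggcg
hsa-let-7a-5p: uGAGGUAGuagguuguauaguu
hsa-miR-103a-3p: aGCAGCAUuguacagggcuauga
hsa-miR-107: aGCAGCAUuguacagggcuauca
The seed of miR-191-5p occurred in 1 of 2370 mature miRNA names of the table, its own. The seed of let-7a was shared by 11 names and that of miR-16 by 7, while miR-103a and miR-107 shared one between them. G and C made up 52.2% of miR-191-5p, against 45.5% of miR-16, 36.4% of let-7a and 47.8% of miR-103a and miR-107. miR-191 thus had the highest G and C content of these bright miRNAs, a property that bears on probe binding, and its part in the brightness was not tested.

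The detection limit of an array was set at the 95th percentile of its mismatch probes, and passing it on 1 array was enough for a miRNA to be tested. By that limit, 136 of the 455 human miRNAs were detected and 106 of them on all 4 arrays. The limit rose from 118 on the untreated array to 143.5 at 10 nM. The labelled cell type was set against marker miRNAs. Of 6 epithelial miRNAs 5 were detected, 4 of them on all arrays. miR-200c read 683 to 866 and miR-200b 144 to 162.5, while miR-375 passed only on the untreated array, at 141. Of 6 blood miRNAs 0 were detected, and their summed signal stayed between 454 and 484. Of 4 fibroblast and smooth muscle markers 1 was detected, miR-214, from 169 without R1881 to 283.5 at 10 nM, and the list summed to 420 to 528. Of 4 muscle markers only miR-206 and of 3 neural markers only miR-128a was detected, with summed signals of 395 to 424 and 356 to 378. The counts for fibroblast, muscle and neural markers lie near the share detected among all human miRNAs and do not set those cell types apart. The liver marker miR-122a was not detected, no marker was listed at 0, and the part of other cells in the values below was not tested.

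The mean signal of miR-191 was 4062 intensity units without R1881, then 3956 at 0.1 nM, 3592 at 1 nM and 4606 at 10 nM. It was lowest at 1 nM and highest at 10 nM, and the dose steps did not run one way. It ranked 1 of 1406 probes on each array, spikes and controls included. Against the untreated array these intensities were 0.974-, 0.884- and 1.13-fold at rising dose. The mean of the 136 detected miRNAs was 1.10-, 1.11- and 1.33-fold its untreated value over the same arrays, and miR-191 stood below that mean at each dose.

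**Figure D1:**
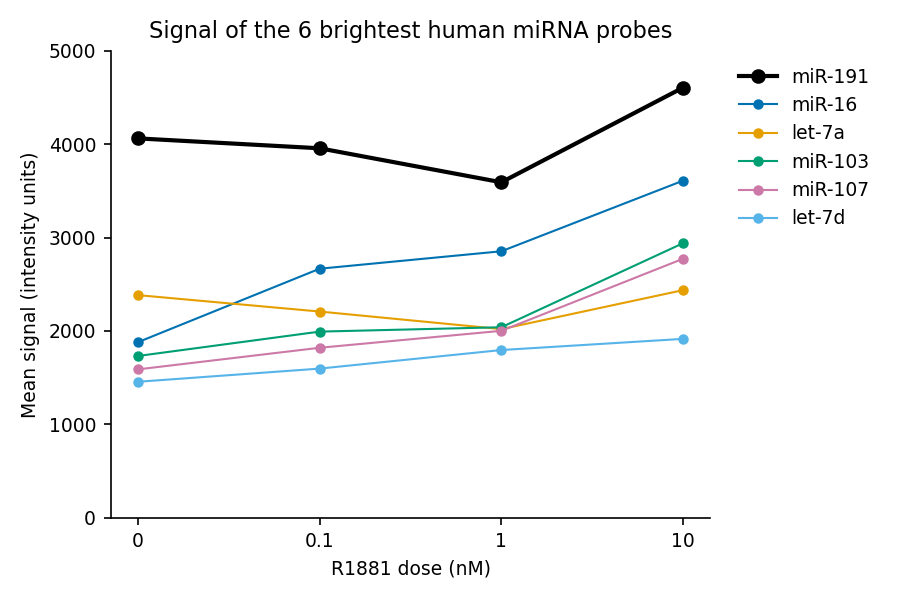
Mean signal (intensity units, linear axis from 0) of miR-191 in black and the next 5 human miRNAs by mean signal, at each R1881 dose in nM, with 1 array per point and no error. miR-191 runs above all 5 at every dose, dips to 3592 at 1 nM and ends at 4606, while miR-16 climbs from 1880 to 3610.

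Of the next 5 in brightness, let-7a had the same order of doses as miR-191 in mean signal and the other 4 did not. miR-16, which restrains cell cycle genes, read 1880, 2667, 2854 and 3610 from 0 to 10 nM. let-7a, a tumour suppressor miRNA, read 2384, 2208, 2020 and 2438. let-7a was second in brightness on the untreated array and miR-16 on each treated one. miR-103 read 1733, 1994, 2040 and 2940, and miR-107, its relative in the PANK genes of coenzyme A synthesis, read 1589, 1821, 2002 and 2774. let-7d read 1457, 1598, 1796 and 1916. In mean signal miR-16, miR-103, miR-107 and let-7d were thus brighter at each step of dose. miR-191 and let-7a were dimmer up to 1 nM and brighter at 10 nM. The mean of the detected miRNAs was also brighter at 10 nM, at 1.33-fold its untreated value. In the log2 ratios to untreated centred for this shift, described below, let-7d went from 0.26 at 1 nM to 0.06 at 10 nM. There let-7a went from −0.29 to −0.31 and miR-191 from −0.22 to −0.16.

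miR-191 made up 5.12% of the summed signal of all 455 human probes without R1881, then 4.73% at 0.1 nM, 4.22% at 1 nM and 4.87% at 10 nM. The mean was 4.73% ± 0.378 (SD over the 4 arrays, which are 4 different doses and no replicates). The share of miR-16 was 2.37%, 3.19%, 3.35% and 3.81% in the same order. The sum holds the background of every undetected probe, and the share is therefore lower than it is over fewer probes. Over the 136 detected miRNAs miR-191 took 8.05%, 7.15%, 6.41% and 6.87%. With the median of each array's mismatch probes subtracted, it took 9.59%, 8.26%, 7.58% and 7.50% of all human signal. In the authors' deposited table of background-subtracted values it took 11.1%, 9.30%, 8.48% and 8.19% of the human miRNAs listed, of which there were 75, 91, 85 and 111. The share was highest on the untreated array in each of these 4 sums. Its lowest point was at 1 nM with background left in and at 10 nM with it subtracted.

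**Figure D2:**
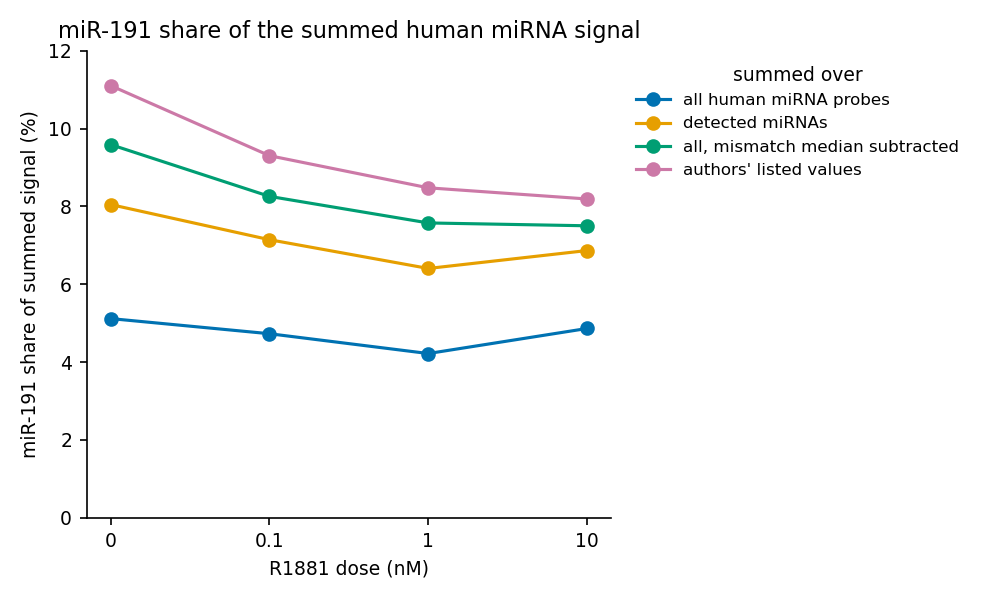
Share of miR-191 in the summed human miRNA signal (%, axis from 0) at each R1881 dose in nM, for 4 ways of forming the sum, with 1 array per point. Each line starts highest at 0 nM, from 5.12% over all human probes to 11.1% over the authors' listed values.

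Ratios to the untreated array were then set against the other detected miRNAs. Background was corrected with limma's normexp method, and each array was centred on the median log2 value of its 136 detected miRNAs. That median was 7.47, 7.55, 7.51 and 7.81 from 0 to 10 nM, a shift of the detected miRNAs that centring removes. On the centred scale miR-191 had log2 ratios of −0.12, −0.22 and −0.16 at 0.1, 1 and 10 nM, or 0.923-, 0.857- and 0.897-fold. From the lowest ratio upward these ranked 22, 14 and 42 of 136. All 3 ratios share the 1 untreated array and are not separate evidence of a direction. None reached 1.5-fold, a size that 2.21% of detected miRNAs reached in either direction at 0.1 nM, 6.62% at 1 nM and 5.88% at 10 nM. The ratio at 10 nM turned with scaling, standing at 0.18 with no scaling and 0.16 with each array centred on the median of all probes.

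A straight line over dose rank was fitted to each of the 136 detected miRNAs in limma. The slope of miR-191 was −0.06 ± 0.04 log2 units per dose step (moderated SE, 4 arrays). With an adjusted p = 0.356 from limma it did not pass the threshold of 0.05. In that fit 13 miRNAs passed, or 9.56% of those tested, 7 with rising and 6 with falling slopes. The split depended on the detection filter. Among the 106 detected on all 4 arrays 13 passed, 9 with rising and 4 with falling slopes. With no scaling the slope of miR-191 was 0.04 ± 0.06 (limma, adjusted p = 0.585), while 39% of the miRNAs passed. With cyclic loess it was −0.16 ± 0.04 and passed (limma, adjusted p = 0.0234), among the 16.9% that did so. Quantile normalization gave the top probe the same value on each array and so a slope of 0 by construction, and 0 of 136 miRNAs passed there by limma's adjusted p, with 36 at an unadjusted p under 0.05. Whether miR-191 rose or fell with dose therefore depended on the scaling. Separate cultures are not stated in the labels, so the p-values cover only how far 4 arrays lie from a line. limma draws the spread for each miRNA partly from the other tested miRNAs. That scatter can be technical.

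**Figure D3:**
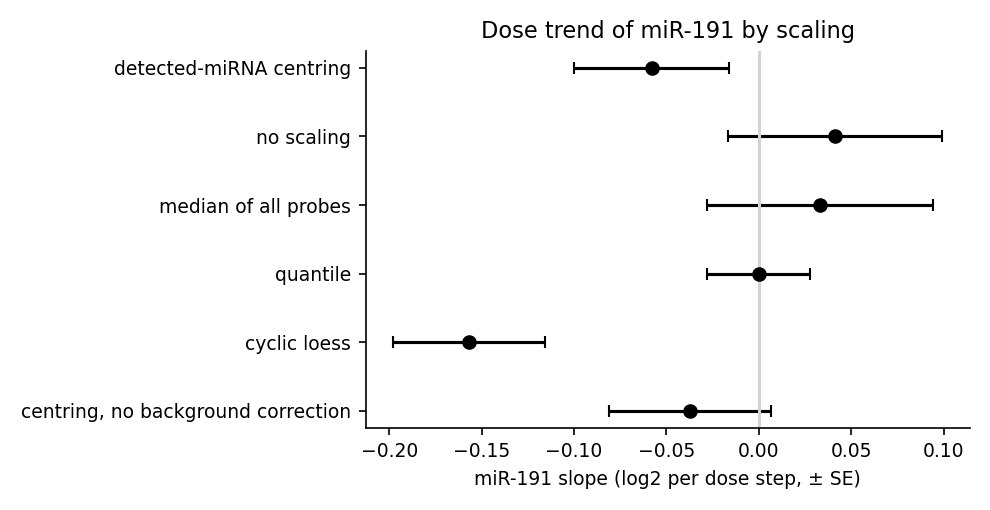
Slope of miR-191 over dose rank (log2 units per dose step, point) with its moderated SE from limma (bar), under 6 ways of scaling 4 arrays. Slopes lie on both sides of 0, from −0.16 with cyclic loess to 0.04 with no scaling.

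The cluster partner moved with miR-191. miR-425-5p read 763, 770, 713 and 900 intensity units from 0 to 10 nM, lowest at 1 nM and highest at 10 nM, as miR-191 was. Its ratios to the untreated intensity were 1.01-, 0.934- and 1.18-fold. The signal of the miR-191 probe over that of the miR-425-5p probe was 5.33, 5.14, 5.04 and 5.12 on the 4 arrays, a quotient of 2 probes and not of 2 RNA amounts. It was highest on the untreated array and changed by less than either probe did. In the authors' deposited table, with background subtracted, the quotient was 5.87, 5.63, 5.60 and 5.50. The centred log2 ratios of miR-425-5p were −0.06, −0.14 and −0.08, with a slope of −0.03 ± 0.04 (SE, 4 arrays, limma, adjusted p = 0.566).

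The other strands of both hairpins stayed at background. miR-191* read 90.5, 90.5, 92.5 and 87.8, and miR-425-3p read 115, 113, 123 and 123, under the detection limit on each array. So 1 of the 3 other probes of the cluster was detected and tested, miR-425-5p, and it did not pass the trend test, which 9.56% of all tested miRNAs passed. The names miR-425 and miR-425* were not found on the array. The mismatch probe of miR-425-3p read 118, 140, 164 and 148, above its matched probe on each array. That of miR-191* read 88 without R1881, was listed at 0 at 0.1 nM, and read 120.5 at 1 nM and 129.5 at 10 nM. At 1 and 10 nM it was above its matched probe. A matched probe under the limit gives only a bound, and the amounts of 3p and 5p strand could not be compared from these probes.

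**Figure D4:**
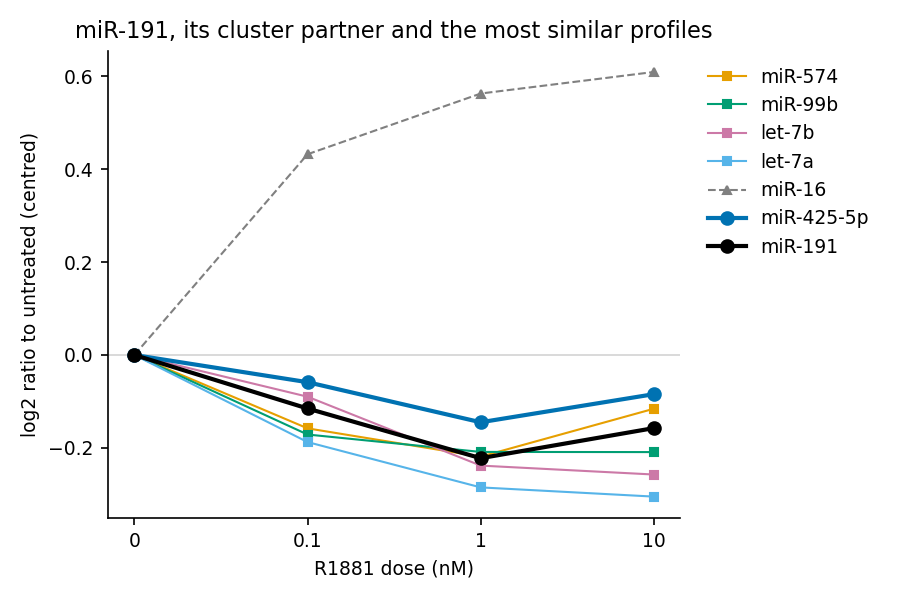
Centred log2 ratio to the untreated array for miR-191 (black), its cluster partner miR-425-5p (thick blue), the other 4 of the 5 most similar miRNAs and miR-16 (dashed), at each R1881 dose in nM, with 1 array per point. miR-191 lies at −0.22 at 1 nM with miR-425-5p close above it at −0.14, while miR-16 reaches 0.61 at 10 nM.

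The miRNAs most like miR-191 were ranked by the root mean square difference of their log2 intensities over the 4 arrays, each centred on its own mean, among the 105 others detected on all arrays. The 5 nearest were miR-574 (0.030), miR-99b (0.031), miR-425-5p (0.031), let-7b (0.047) and let-7a (0.052). miR-425-5p thus ranked 3 of 105. miR-574 read 501, 472, 446 and 574.5 and miR-99b read 219, 203, 197 and 230, both lowest at 1 nM and highest at 10 nM. let-7b read 345, 339, 304 and 357, in the same order of doses. These intensities hold the shift of the detected miRNAs at 10 nM. On the centred scale miR-191 stood at −0.22 at 1 nM and −0.16 at 10 nM, and miR-574 at −0.22 and −0.12. There miR-99b stood at −0.21 at both doses, let-7b at −0.24 and −0.26, and let-7a at −0.29 and −0.31. At the other end, miR-16 ranked 100, with a difference of 0.317. With 4 points that share every array, this likeness is a description.

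The base sequence 5′ of the pair is shown because both miRNAs lie within DALRD3 and moved together. Such a likeness is not particular to the pair, as miR-574 and miR-99b followed miR-191 as closely. It is the 250 bases before the DALRD3 start that lies 5′ of both hairpins (GRCh38.p14, chr3:49021506-49021755, minus strand, RefSeq), with the GC box letters GGGCGG, on either strand, in capitals.
DALRD3 promoter: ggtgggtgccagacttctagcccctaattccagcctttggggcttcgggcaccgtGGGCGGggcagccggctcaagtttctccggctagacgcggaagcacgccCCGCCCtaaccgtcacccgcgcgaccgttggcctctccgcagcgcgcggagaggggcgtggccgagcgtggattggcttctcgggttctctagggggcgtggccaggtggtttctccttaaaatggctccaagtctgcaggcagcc
GGGCGG occurred 2 times, and at least once in 42.6% of 35116 promoter windows of that length. AGAACA on either strand, the core element bound by the androgen receptor, was found 0 times here and in 12.4% of the windows. Its inverted repeat with 3 bases between, which holds those letters, was found 0 times here and in 1 of the windows. These letters are not in this window, which says nothing of androgen receptor binding. G and C made up 66.8% of it, against a median of 58% over all windows.

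The 2mut probe of miR-191 departed from its matched probe. It read 193.5 without R1881, was listed at 0 at 0.1 nM, and read 305.5 at 1 nM and 761 at 10 nM. The 0 stands among 9 mismatch probes listed at 0 on that array, miR-191* and miR-26b among them, and may be a missing value. On the 3 arrays with a value the probe was brighter at each higher dose. It was 3.93-fold brighter at 10 nM than without R1881, against 1.13-fold for the matched probe. Of 432 other human mismatch probes with a value on every array 0 reached that fold. Their median was 0.909-fold and the highest, of miR-105, 1.90-fold. The array medians of mismatch probes were 84.5 without R1881 and 76 at 10 nM. Most thus read near background, which narrows a fold, so the count is a description.

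Among all 455 human mismatch probes that of miR-191 was second on the untreated array, after that of miR-568 at 288, and first at 1 and 10 nM. The mismatch probes of the next 5 brightest miRNAs read between 75.5 and 104.5 on the 4 arrays. In percent of its matched probe, the miR-191 mismatch signal was 4.76% without R1881, 8.51% at 1 nM and 16.5% at 10 nM. For those 5 miRNAs it was at most 7.17%, 5.05% and 4.12%.

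**Figure D5:**
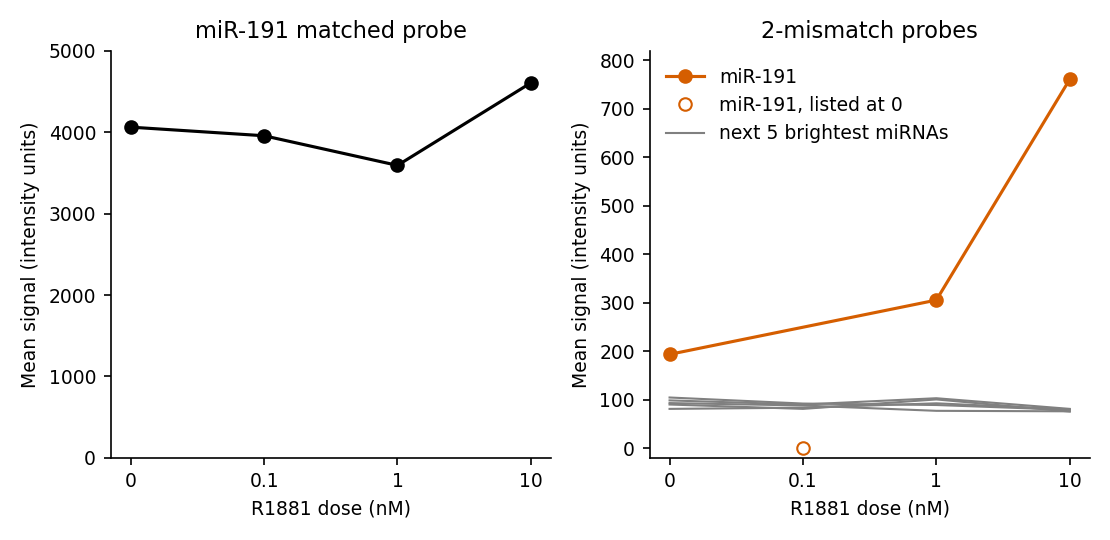
Mean signal (intensity units) of the miR-191 matched probe (left, axis from 0) and of its 2-mismatch probe (right) at each R1881 dose in nM, with grey lines for the mismatch probes of the next 5 brightest miRNAs and an open circle for the value listed at 0. The miR-191 mismatch probe reaches 761 at 10 nM while the grey lines stay between 75.5 and 104.5.

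Matched over mismatch signal was 21.0 for miR-191 without R1881, then 11.8 at 1 nM and 6.05 at 10 nM. Over 130 other detected miRNAs the median was 2.14, 2.18 and 2.70 on those arrays. Of the 130, 1 had a higher quotient than miR-191 without R1881, then 9 at 1 nM and 31 at 10 nM. The quotient rises with matched brightness, by which miR-191 was chosen, so its place among the 130 is a description. With the mismatch signal subtracted, miR-191 stood at 3868 without R1881, then 3287 at 1 nM and 3845 at 10 nM. The matched signal at 10 nM was thus 1.13-fold the untreated one, and 0.994-fold after that subtraction. No probe sequences were used here, and what raised the mismatch signal was not tested.

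miR-191 was set beside 10 other miRNAs used as references in quantitative PCR, of which 9 were detected, all on every array, and miR-30e-5p was not. The quotient of the highest to the lowest intensity over the 4 arrays was 1.28 for miR-191. miR-16 had 1.92, miR-103 1.70, miR-25 1.64, miR-24 1.47, miR-93 1.45 and miR-23a 1.32. let-7a had 1.21, miR-92 1.18 and miR-26b 1.14. So 6 of the 9 varied more than miR-191 and 3 less. Background was left in these intensities. It narrows the quotient of a dim probe such as miR-92, at 187 to 220, more than that of miR-191.

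After centring, miR-191 had a highest-to-lowest quotient of 1.17, and again 6 of the 9 had a larger and 3 a smaller one. There miR-16 had the largest of the 9 at 1.53 and miR-26b the smallest at 1.10. Among all 106 miRNAs detected on every array, miR-191 was the 48th steadiest in deposited intensity, with a median of 1.31 over the 106. After centring it was the 33rd, with a median of 1.22. It was the brightest probe, and lay near the middle of the order in deposited intensity and nearer its steady end after centring. Background in the deposited intensities, and the offset of 50 on the centred scale, make dim probes look steadier. Both orders therefore depend in part on brightness.

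In limma's trend test 1 of the 9 detected references passed, miR-16, which rose relative to the detected miRNAs with a slope of 0.20 ± 0.05 (SE, 4 arrays, adjusted p = 0.0453, limma), beside the 9.56% of all tested. The median slope of the 9 was 0.08, against 0.02 over all 136. Of the 5 miRNAs next in brightness 2 passed, miR-16 and miR-107, the latter with a slope of 0.16 ± 0.04 (SE, 4 arrays, adjusted p = 0.0453, limma). The slope of let-7a, alike to miR-191 in the course of its intensity, was −0.10 ± 0.04 (SE, 4 arrays, adjusted p = 0.121, limma).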

How the data were processed

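The 4 arrays of LAPC-4 cells took their group from the dose in the title. Per the file headers, the authors deposited 1 mean signal for each probe name, a linear intensity. All matched values are multiples of 1/4 and all mismatch values of 1/2, as means of 4 and 2 spots would be. The authors' deposited value table holds the same intensity minus 1 constant per array (84.5, 82, 87 and 76, equal to the median of that array's mismatch probes with those listed at 0 counted; without them the 1 nM median is 87.5), and is blank where the result is under that constant. The labels speak of data relative to untreated cells, yet intensities of the untreated array are deposited too. The scanner and its software: not given in the sources used here.

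Fits left out 28 mismatch probes that read 0 on some array. Background was corrected with normexp at an offset of 50 (R 4.3.3, limma 3.58.1), values were taken to log2, and arrays were centred on the median of 136 detected miRNAs. Centring replaced quantile normalization, which fixes the brightest probe. Trends were fitted on dose rank with lmFit and eBayes, leaving 2 residual degrees of freedom, with Benjamini-Hochberg adjustment over the detected miRNAs, and the step was tested on simulated data. The number of arrays limits the precision. miR-191 and the lists were chosen with earlier results of these data known. The text names miR-191, the next 5 in brightness, the 5 most similar profiles, the cluster, the reference miRNAs and cell type markers; miR-105 and miR-568 were named after their values were seen. Alternatives were other scalings, no background correction, other filters on dim probes, another coding of dose, leaving out each array and other sums for the share. The authors' subtracted values were added as an alternative after the data were seen.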

Additional observations from a re-analysis of the deposited data

How the results depend on the processing

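The slope of miR-191 turned to rising with no scaling (0.0413 per dose step, limma, adjusted p = 0.585) and with the median of all probes (0.0331, adjusted p = 0.713). It passed with cyclic loess (−0.157, adjusted p = 0.0234, limma). Leaving out each array gave slopes from −0.111 to −0.0211, with adjusted p from 0.191 to 0.933 in limma. The cause of these changes was not tested, save that no scaling and the median of all probes differ from the main setting by 1 constant per array.

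The count of trends was 13, and it became 53 with no scaling, 49 with the median of all probes, 0 with quantile normalization, and 23 with cyclic loess, with no background correction and with treated against untreated. It became 82 over all 455 human probes, and ranged from 0 to 17 when 1 array was left out: 0 without the 10 nM array, 1 without the 1 nM array, 2 without the untreated array and 17 without the 0.1 nM array.

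The log2 ratio at 1 nM moved to 0 with quantile normalization and −0.422 with cyclic loess. That at 10 nM moved to 0.185 with no scaling, 0.162 with the median of all probes, −0.459 with cyclic loess and 0.188 in the authors' deposited table, each by more than 0.174, the SD of differences between treated arrays. The mean share moved from 4.73% to 7.12% over detected miRNAs, 5.30% without the other 4 of the 5 brightest, 8.23% with the mismatch median subtracted and 9.27% in the authors' deposited table. The ratio at 0.1 nM stayed within that SD under all 6 alternatives. The mean quotient of matched to mismatch signal was 12.9 over 3 arrays and 19.7 with the mismatch median subtracted from both. No paired analysis was possible because each dose has 1 array. With 1 array per dose, no ratio has an error from repeated samples.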
